A study of Arabidopsis thaliana with 6 samples.

Results

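The 200 nuclear genes described here are those with the brightest probe-set signal in rosettes of the wild type Col-0 under low sulfate. They were chosen by their mean log2 signal over the 3 Col-0 arrays, from 13217 nuclear genes that have a probe set naming 1 gene, each gene being represented by its brightest such probe set. The Col-0 level is therefore what selected them and is given as a description, without a test. The study compared whole rosettes of Col-0 with rosettes of sid2.2, a mutant of ICS1, the isochorismate synthase of salicylic acid synthesis. Both genotypes were grown at 0.016 mM sulfate, the only sulfate supply here, until day 60, in short days of 8 h light (160 µmol m-2 s-1) and 16 h darkness. Each of 3 cultures, started months apart, gave 1 pool of more than 6 rosettes per genotype, so each genotype has 3 arrays, and the replicate number is the culture number. All values below are listed in the order of cultures 1, 2 and 3.

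Rosette leaves are photosynthetic organs, and much of their messenger RNA encodes chloroplast proteins made in the cytosol: subunits of the photosystems and of their antenna, enzymes of carbon fixation and of photorespiration, which salvages the by-product of the oxygenase reaction of Rubisco. Sulfate is reduced in the chloroplast and enters cysteine, methionine and glutathione, which the redox enzymes of the leaf depend on. Proteins are recycled in the vacuole by proteases and by autophagy, a route known to become more active in ageing and starved leaves. Salicylic acid, a hormone of pathogen defence, is made in Arabidopsis largely through the isochorismate route.

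The signal of a probe set also depends on how well its probes hybridise, so the rank orders signals and does not measure molecules of one gene against another. Whether any of the brightest probe sets were saturated is not given in the sources used here. At or above the level of rank 200 lay 573 probe sets other than controls. Besides the 200 members these were 320 without a gene name in the annotation used, 30 that name several genes, 22 of organelle or other loci and 1 whose gene identifier had no match in the gene table, so the list covers the named nuclear part of the bright signals only. By its suffix, 1 member (AT3G26070) had a probe set whose probes match more than 1 transcript. A symbol other than the locus number came with 43 members, and 51 could be given a role by symbol, synonym or listed locus. The other 149 are given by locus alone, so the counts per role below cover 51 of 200 members and do not show which function holds most of the list. The members lay on chromosomes 1 to 5 in numbers of 54, 30, 46, 28 and 42, which is 27%, 15%, 23%, 14% and 21% of them, against 25.8%, 16.4%, 20.6%, 14.6% and 22.6% of all 13217 genes. Of 7 markers of leaf mesophyll 4 had a usable probe set, and all of them (RCA, LHCB4.1, PRK and SBPASE) were members. The guard cell marker FMA gave only signals of 141, 139 and 98.3 on the Col-0 arrays and of 172, 94.9 and 98.6 on the sid2.2 arrays, and the root marker PYK10, a beta-glucosidase of root endoplasmic reticulum bodies, signals of 83.8, 170 and 44.4 on the Col-0 arrays and of 232, 32.0 and 115 on the sid2.2 arrays. Markers of phloem, seed and flower were not analysed here.

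Signal ranged from a mean of 30872 at rank 1 to 5249 at rank 200 (geometric means over the Col-0 arrays), a 5.88-fold range. Together the members held 27.2%, 26.5% and 24.6% of the summed signal of all nuclear single-gene probe sets on the Col-0 arrays (mean 26.1 ± 1.34, SD, n = 3). On the sid2.2 arrays the same genes held 25.9%, 25.1% and 28.6% (mean 26.5 ± 1.82, SD, n = 3). The ranges overlap and the means differed by 0.41 percentage points, given without a test because the Col-0 arrays chose the genes. Leaving out Col-0 replicate 3 turned the difference to -0.33, leaving out sid2.2 replicate 3 to -0.60, and leaving out culture 3 to -1.35, so its sign rested on culture 3. When each array's own 200 brightest genes were summed instead, the means were 26.7% and 27.5% (two-sided exact permutation test, p = 0.6, where 0.1 is the smallest that 3 against 3 arrays can give). These are shares of signal from tissue RNA, in which fewer cells of a type and less RNA per cell cannot be told apart.

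The brightest signal belonged to AT2G25510, with signals of 32193, 32626 and 28013 on the Col-0 arrays and of 28762, 36676 and 34734 on the sid2.2 arrays. AT3G22240 followed, with 33226, 32079 and 21729.9 on the Col-0 arrays against 25813, 29940.4 and 40647 on those of sid2.2, and ECS1, a cell wall protein, with 31884, 34570.4 and 20545 on the Col-0 arrays against 32268, 34249 and 41865 on those of sid2.2. The sid2.2 and Col-0 arrays overlapped for each of these 3 genes. ECS1 was lowest on Col-0 replicate 3 and highest on sid2.2 replicate 3, and its sid2.2 mean took rank 1. AT2G41090, at rank 4, had 22169, 22191 and 18036 on the Col-0 arrays against 21185, 23499.9 and 23567 on those of sid2.2, a narrower spread. AT2G26500, at rank 5, had 21528, 20902 and 17911 on the Col-0 arrays against 17388, 19737 and 21180.4 on those of sid2.2. The other members without a role in the first 25 ranks, beside AT1G75280, were AT1G78040, AT1G09310, AT3G60245, AT5G38980, AT3G48140, AT1G52300, AT3G49910 and AT1G01100, with Col-0 signals from 10308 to 20262 and differences of means from -0.18 to 0.21 (log2, sid2.2 minus Col-0).

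**Figure D1:**
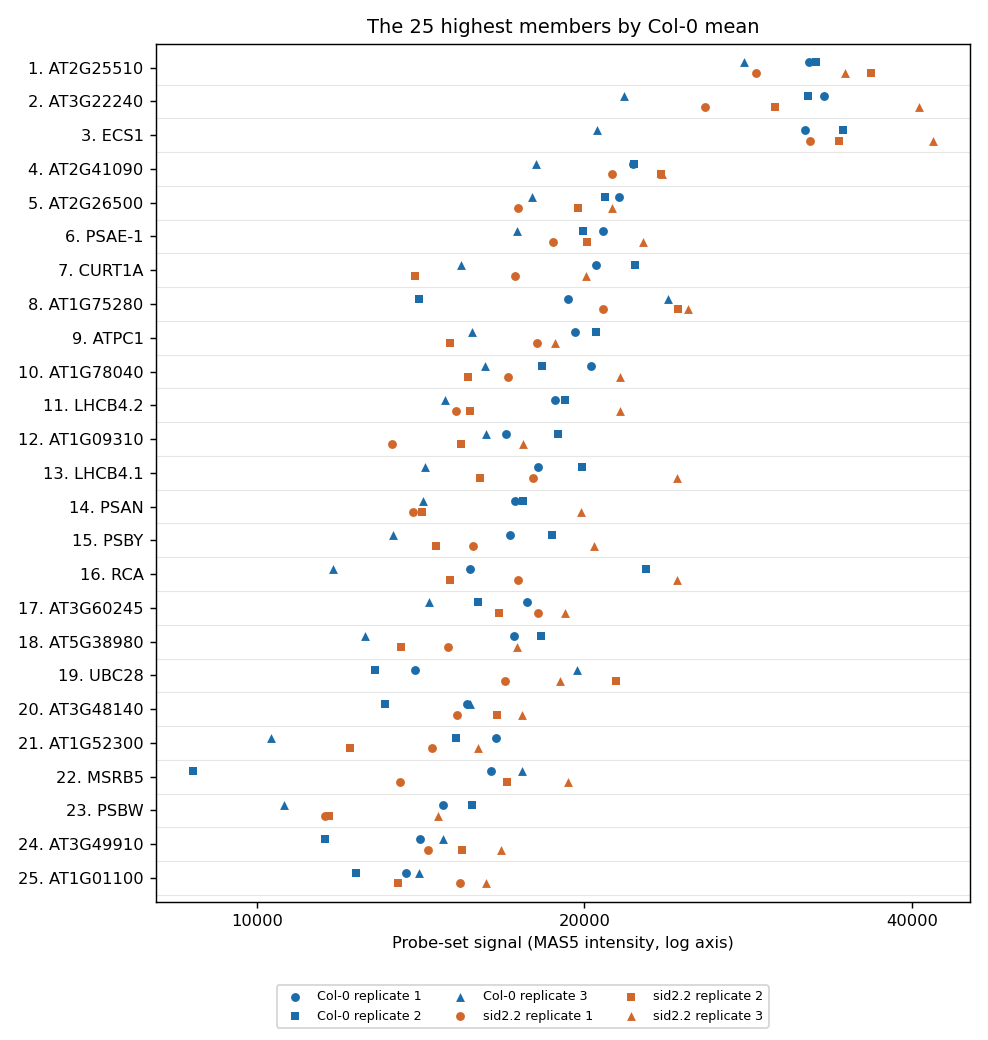
Signal (MAS5 intensity, log axis) of the 25 members with the highest Col-0 mean, in rank order from the top; each point is 1 array, blue for Col-0 and orange for sid2.2, with a circle, square or triangle for replicate (culture) 1, 2 or 3. The colours mix in nearly every row, and all 25 genes were also among the 200 brightest by their sid2.2 mean.

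Photosystem, antenna and thylakoid proteins formed the largest group among the 51 members with a role, with 12 genes, 8 of them within the first 25 ranks. The 149 members without a role were not sorted by function, so a larger group may lie among them. PSAE-1, a stromal-side subunit of photosystem I, had 20780, 19918 and 17320.2 on the Col-0 arrays against 18694, 20089.8 and 22623 on those of sid2.2, at rank 6 in both genotypes. PSAN, a lumenal subunit of photosystem I, had 17259.5, 17558 and 14196 on the Col-0 arrays against 13909, 14179 and 19859.7 on those of sid2.2, and moved from rank 14 to 21. Neither gene separated the genotypes: in both, the lowest and highest values of one genotype enclosed values of the other. For photosystem II, PSBY and PSBW, small membrane subunits, were at ranks 15 and 23. PSBY had 17092, 18683 and 13321 on the Col-0 arrays against 15794, 14592 and 20425 on those of sid2.2, and PSBW had 14824, 15764 and 10597 on the Col-0 arrays against 11553, 11642 and 14674 on those of sid2.2. PSB27, which takes part in photosystem II assembly and repair, lay at rank 54 with 12572, 12750.2 and 5611 on the Col-0 arrays against 10816, 6090 and 8232 on those of sid2.2. Of these subunits PSB27 varied most, and was lowest on Col-0 replicate 3 and sid2.2 replicate 2. The antenna was represented by LHCB4.2 and LHCB4.1, copies of the minor antenna protein CP29, at ranks 11 and 13. LHCB4.2 had 18807, 19196 and 14879 on the Col-0 arrays against 15252, 15691 and 21572 on those of sid2.2, and LHCB4.1 had 18120.4, 19906 and 14271 on the Col-0 arrays against 17930.5, 16033 and 24346 on those of sid2.2. Both were brightest on sid2.2 replicate 3 and dimmest on Col-0 replicate 3. Another gene of this small family with a usable probe set, LHCB4.3, was no member (rank 580 in Col-0), with 3094, 2803 and 1699.7 on the Col-0 arrays against 2312, 2194 and 2673 on those of sid2.2.

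CURT1A (AT4G01150), a protein that bends the thylakoid membrane at the margins of the grana, took rank 7 with 20507, 22239 and 15403 on the Col-0 arrays against 17263, 13968 and 20055 on those of sid2.2. Its relative CURT1C (AT1G52220) was at rank 107 with 8813, 7229 and 6385 on the Col-0 arrays against 5623, 5714 and 8134 on those of sid2.2. ATPC1, the gamma subunit of the chloroplast ATP synthase, was at rank 9 with 19618, 20502 and 15775 on the Col-0 arrays against 18085, 15036 and 18789 on those of sid2.2. For these 3 genes the sid2.2 mean was lower, by 0.18, 0.21 and 0.10 (log2), and the arrays of the genotypes overlapped. CaS, the calcium-sensing protein of the thylakoid, had 10414, 9996 and 7411 on the Col-0 arrays against 7591, 6069 and 8000.5 on those of sid2.2, a mean lower by 0.36 (log2) in sid2.2, the widest difference in the group. PIFI, named for its effect on chlorophyll fluorescence after illumination, had 8416, 7561 and 6459.7 on the Col-0 arrays against 6946, 7277 and 6772 on those of sid2.2. In all, 3 of the 12 had a higher and 9 a lower mean in sid2.2, with a median difference of -0.10 (log2, sid2.2 minus Col-0) and a range from -0.36 to 0.15. None passed the limma test over all probe sets (smallest adjusted p = 0.757), and all 12 remained among the 200 brightest genes of sid2.2.

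Carbon fixation, photorespiration and chlorophyll synthesis contributed 9 members. RCA, the activase that keeps Rubisco active, was at rank 16 with 15691, 22785 and 11743 on the Col-0 arrays against 17358, 15029.5 and 24339 on those of sid2.2. Within Col-0 alone RCA spanned 11743 to 22785, a wider range than in sid2.2. SBPASE and PRK, sedoheptulose bisphosphatase and phosphoribulokinase of the Calvin cycle, were at ranks 65 and 88. SBPASE had 9453, 12968 and 6210.1 on the Col-0 arrays against 7688, 5049 and 9176 on those of sid2.2, and PRK had 7071, 13492 and 5410 on the Col-0 arrays against 8804, 5038 and 9254 on those of sid2.2. In both, Col-0 replicate 2 was the brightest array and sid2.2 replicate 2, of the same culture, the dimmest. The photorespiratory members were HPR, the peroxisomal hydroxypyruvate reductase, with 10625, 16632 and 8772 on the Col-0 arrays against 9292, 8128 and 11556 on those of sid2.2, and AT1G32470 and AT1G11860, which have no symbol in the gene table used and were placed by the photorespiration list. AT1G32470 had 10655, 11332 and 6694 on the Col-0 arrays against 7204, 5495 and 8689 on those of sid2.2. AT1G11860 had 7512, 10348 and 4135 on the Col-0 arrays against 5086, 3173 and 5862 on those of sid2.2, and dropped from rank 127 to 236. CHLM, the methyltransferase that acts after magnesium insertion in chlorophyll synthesis, had 7864, 8198 and 5535 on the Col-0 arrays against 5922, 4518 and 6114 on those of sid2.2. AT1G74470, a geranylgeranyl reductase by its synonym, which makes the phytyl tail of chlorophyll, had 8155, 11105 and 7257 on the Col-0 arrays against 9708, 6742 and 10817 on those of sid2.2. LIL3:2, a light-harvesting-like protein, had 6334, 6512 and 6325 on the Col-0 arrays against 5010.4, 5424 and 5146 on those of sid2.2: its sid2.2 arrays all lay below its Col-0 arrays, and it slipped from rank 143 to 204.

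For this group 2 means were higher and 7 lower in sid2.2, with a median of -0.30 (log2) and no gene past the test (smallest limma adjusted p = 0.745). The median within cultures 1, 2 and 3 was -0.30, -1.03 and 0.50, so the sign was not shared by the cultures. The photosystem group had within-culture medians of -0.26, -0.35 and 0.43.

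Protein recycling was represented by 5 members, all with a higher mean in sid2.2, against 111 of all 200 members. As with all role groups, this one was formed after the names and differences had been seen, so its count is a description. UBC28, a ubiquitin-conjugating enzyme, was at rank 19 with 13970, 12847 and 19666 on the Col-0 arrays against 16919.8, 21365 and 18982 on those of sid2.2. GAMMA-VPE, a vacuolar processing enzyme that cleaves and activates other vacuolar proteins, was at rank 30 with 12813, 6796 and 21829.6 on the Col-0 arrays against 17551, 21582 and 16413 on those of sid2.2. APA1, a vacuolar aspartic protease, had 6806, 7395 and 11004 on the Col-0 arrays against 10579.8, 12454 and 10526 on those of sid2.2. In each of these 3 genes Col-0 replicate 3 lay with or above the sid2.2 arrays, and Col-0 replicates 1 and 2 lay below them. ATG8F and APG8H are ATG8 proteins, which are coupled to the membrane of the autophagosome. ATG8F had 7231, 4306 and 10692 on the Col-0 arrays against 8583, 10701 and 8959 on those of sid2.2, and APG8H had 6879.5, 4099.9 and 8756 on the Col-0 arrays against 6079.9, 8619 and 7015 on those of sid2.2. Both were dimmest on Col-0 replicate 2 and brightest on Col-0 replicate 3 or sid2.2 replicate 2. The group's median difference was 0.44 (log2, range 0.19 to 0.57), and within cultures 1, 2 and 3 it was 0.28, 1.07 and -0.26. No gene passed (smallest limma adjusted p = 0.737), and the arrays of the genotypes overlapped for all 5.

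**Figure D2:**
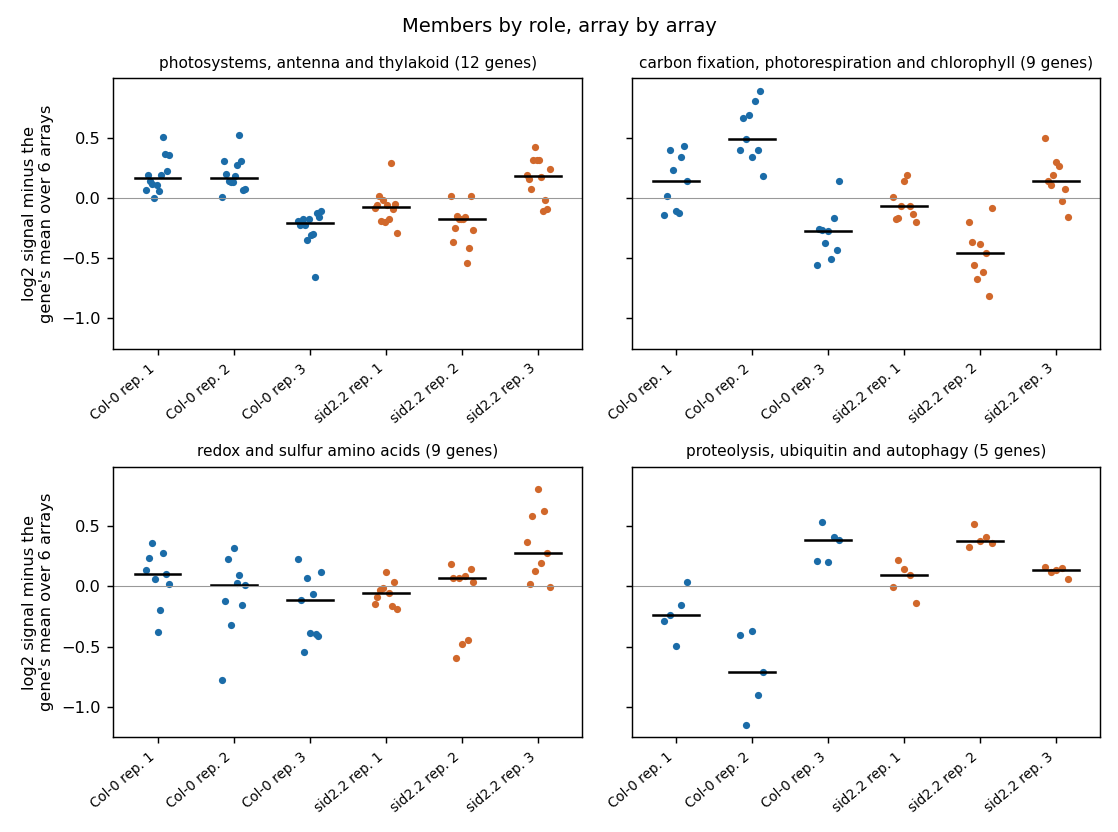
Log2 signal of each member minus its own mean over the 6 arrays, by array, for 4 role groups (blue Col-0, orange sid2.2; each point is a gene and the bar is the median over the genes). Photosynthesis genes were lowest and protein recycling genes highest on Col-0 replicate 3 and sid2.2 replicate 2, whereas Col-0 replicate 2 had photosynthesis medians above 0 and the lowest protein recycling median, so the pattern crossed the genotypes.

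The arrays that stood together came from different genotypes and different cultures. Relative to each gene's 6-array mean, the carbon fixation group had medians of 0.14, 0.49 and -0.28 on the Col-0 arrays and of -0.073, -0.46 and 0.14 on the sid2.2 arrays (log2). The protein recycling group had medians of -0.24, -0.71 and 0.39 on the Col-0 arrays and of 0.091, 0.38 and 0.14 on the sid2.2 arrays. Both groups thus placed Col-0 replicate 3 beside sid2.2 replicate 2 and far from Col-0 replicate 2. The arrays carry control probe sets for actin and GAPDH, each in an older and a revised design, whose ratio of 3' to 5' signal rises as RNA is shortened. The revised actin ratio was 4.91, 4.85 and 4.81 on the Col-0 arrays and 5.34, 6.51 and 8.34 on the sid2.2 arrays, without overlap. The older actin ratio was 24.66, 15.02 and 19.67 against 17.30, 37.12 and 23.28, with overlap, and was highest on sid2.2 replicate 2. The revised GAPDH ratio was 1.296, 1.156 and 1.070 against 1.163, 1.264 and 1.263, with overlap, and the older one was 2.81, 2.74 and 2.33 against 2.93, 3.26 and 3.87, without. The part of RNA shortening in the results was not tested.

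Redox enzymes and the metabolism of sulfur amino acids supplied 9 members. MSRB5, a methionine sulfoxide reductase that repairs oxidised methionine, was the brightest of them at rank 22, with 16419, 8737 and 17539 on the Col-0 arrays against 13526, 16959 and 19309.5 on those of sid2.2, Col-0 replicate 2 being far below the other arrays. ATHM2, a chloroplast thioredoxin of the m type, had 14480.1, 11302 and 11347 on the Col-0 arrays against 11543, 12874 and 12429.6 on those of sid2.2, and a difference of means of -0.0026 (log2). AT3G11630, placed by the redox list, had 14833, 13581 and 7933 on the Col-0 arrays against 11317, 7676 and 17392 on those of sid2.2. Among the others, GRXC2, a glutaredoxin, had 11447, 8777 and 11519.6 on the Col-0 arrays against 10904, 11499 and 12021 on those of sid2.2, and GSTL3, a glutathione transferase of the lambda class, had 5969.6, 5936 and 6371 on the Col-0 arrays against 5154, 6017 and 5849 on those of sid2.2. PRXR1, a peroxidase, had 7750.3, 12580.5 and 7702 on the Col-0 arrays against 10979.6, 7228 and 17627 on those of sid2.2, with sid2.2 replicate 3 the highest array. MT1C, a metallothionein, a small cysteine-rich protein that binds metals, had 8129, 6773 and 5683 on the Col-0 arrays against 7761, 8369 and 9137 on those of sid2.2. ARD4, an acireductone dioxygenase of the cycle that salvages methionine, had 8488, 7518 and 5338 on the Col-0 arrays against 6263, 5166 and 10866 on those of sid2.2. SAMDC, an S-adenosylmethionine decarboxylase of polyamine synthesis, had 7863, 9191 and 8622 on the Col-0 arrays against 8664, 9570.1 and 10288 on those of sid2.2. Of the 9, 6 had a higher and 3 a lower sid2.2 mean (median 0.13, range -0.11 to 0.31, log2; smallest limma adjusted p = 0.768), and all 9 stayed among the 200 brightest genes of sid2.2.

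No measured enzyme of sulfate assimilation was a member. Of 16 listed genes of sulfur assimilation and the methionine cycle, 3 had a usable probe set. SIR, the sulfite reductase, was at rank 1351 in Col-0 with 896, 1487 and 1279.8 on the Col-0 arrays against 1222, 1389.9 and 1719 on those of sid2.2. APS3 and APS4, ATP sulfurylases, were at ranks 1393 and 5760. BGLU28, a beta-glucosidase known as a marker of sulfate starvation, lay at rank 263 in Col-0 and 67 in sid2.2, with 4701, 1256 and 13807 on the Col-0 arrays against 8079, 14190.5 and 7224 on those of sid2.2. Col-0 replicates 2 and 3 held its lowest and next to highest values, so the genotypes overlapped.

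Cytosolic glycolysis and respiration gave 4 members, 2 with a higher and 2 with a lower sid2.2 mean (median -0.067, range -0.16 to 0.075, log2). GAPC2, a cytosolic glyceraldehyde-3-phosphate dehydrogenase, had 10929, 14655 and 8335 on the Col-0 arrays against 10859.5, 7873 and 11247 on those of sid2.2. TPI, triosephosphate isomerase, had 11378, 11328 and 9062 on the Col-0 arrays against 11114, 10219 and 10669 on those of sid2.2, with every array between 9062 and 11378. CYTC-1, a cytochrome c, had 8743, 7009.9 and 7982 on the Col-0 arrays against 8580.4, 7503 and 8880 on those of sid2.2. ALDH11A3, the non-phosphorylating glyceraldehyde-3-phosphate dehydrogenase, had 5488, 7595 and 4683 on the Col-0 arrays against 5966, 4092 and 5837 on those of sid2.2 and moved from rank 170 to 203. All 4 overlapped between genotypes.

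The 5 members tied to stress and defence by name had the widest range of differences among the role groups, from -0.94 to 0.34 (log2). COR15A, a cold-regulated chloroplast protein that protects membranes during freezing, was bright on some arrays and dim on others, with 15597, 14801 and 1419.7 on the Col-0 arrays against 3527, 949 and 13794 on those of sid2.2. Its highest array was 16.4-fold above its lowest, and both genotypes had high and low arrays: Col-0 replicates 1 and 2 and sid2.2 replicate 3 were high, Col-0 replicate 3 and sid2.2 replicate 2 low. The mean difference of -0.94 (log2, SE 1.09) was the widest of all members, yet it was -2.14 and -3.96 within cultures 1 and 2 and 3.28 within culture 3 (limma adjusted p = 0.862). COR15B, a close relative that was no member, was likewise low on Col-0 replicate 3 and sid2.2 replicate 2, with 4348, 4627 and 644 on the Col-0 arrays against 1099.8, 409 and 2657 on those of sid2.2. DI19, a drought-induced zinc finger protein, had 10590, 10587 and 12221 on the Col-0 arrays against 11691, 13899.9 and 14231 on those of sid2.2. AILP1, at rank 35, had 12625, 10046 and 12359.7 on the Col-0 arrays against 11812, 13507 and 12818 on those of sid2.2. HIRD11 (AT1G54410), a small dehydrin, had 11500.2, 11833 and 10234 on the Col-0 arrays against 8404, 8775 and 8158 on those of sid2.2: here the highest sid2.2 array lay below the lowest Col-0 array, and the gene moved from rank 38 to 88 (difference -0.40, SE 0.16, log2; limma adjusted p = 0.633).

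A last set of 7 named members has no common role. PGY1, a ribosomal protein of the large subunit, had 7516, 6533 and 5686 on the Col-0 arrays against 6791, 6058 and 6922 on those of sid2.2. SFP1, a sugar transporter-like protein, had 7624, 3476 and 11008 on the Col-0 arrays against 6596, 10422 and 6097 on those of sid2.2; Col-0 replicates 2 and 3 were its lowest and highest arrays. NCL (AT1G53210), a sodium and calcium exchanger-like protein, had 6926, 7621 and 7825 on the Col-0 arrays against 7554, 10179.6 and 7635 on those of sid2.2. OEP16-3, known here by its symbol only, had 6984, 6389 and 6309 on the Col-0 arrays against 6213, 6552 and 7527 on those of sid2.2. WLIM2b, an actin-binding LIM protein, had 5331, 4335 and 7425 on the Col-0 arrays against 5677, 6838 and 6069 on those of sid2.2. CCL had 6274, 5843 and 7636 on the Col-0 arrays against 4952, 7115 and 4551 on those of sid2.2. CP5 had 4374, 4981 and 10576 on the Col-0 arrays against 5792, 7394 and 5626 on those of sid2.2. Of these 7, 6 had a higher mean in sid2.2 (median 0.041), and none passed (smallest limma adjusted p = 0.818).

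Differences between genotypes were tested with limma on log2 signal over the 13647 probe sets above a low-signal limit, which all 200 members passed. At a Benjamini-Hochberg adjusted p under 0.05, 0 of the 200 members were called, against 0.022% of all tested probe sets (3 of 13647). At an unadjusted p under 0.05 there were 3 members, 1 higher and 2 lower, which is 1.5% against 7.4% of all tested probe sets. They were AT3G56290, AT3G16370 and AT1G54410, and AT3G16370 had the smallest adjusted p of the list (0.453). With culture as a replicate block 0 members were called (smallest limma adjusted p = 0.998), and 0 of all tested probe sets. Without culture 3 the count became 7, 1 higher and 6 lower, or 3.5% of the members against 5.33% of all tested probe sets. These 7, named after their values were seen, were COR15A, AT5G22580, AT5G08050, AT1G13930, AT1G11860 and AT2G42220, lower in sid2.2 in that fit, and AT1G80130, higher (limma adjusted p from 0.01 to 0.0484). Within culture 3 each of the 7 differed in the opposite direction.

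The differences of the members were small. The median over the 200 was 0.020 (log2, sid2.2 minus Col-0), with 111 genes higher and 89 lower, beside a median of -0.0051 with 6744 higher and 6903 lower over all tested probe sets. The middle 50% of the members lay between -0.14 and 0.15. In size the median difference was 1.11-fold, against 1.17-fold over all tested probe sets. The median SD between the arrays of a genotype was 0.22 in Col-0 and 0.21 in sid2.2 (log2), against 0.33 and 0.28 over all tested probe sets, and for 142 members (71%) the difference was smaller than the SD between arrays, against 65.9% of all tested probe sets. Because high Col-0 values chose the genes, the difference leans downwards by construction. With the 200 genes chosen by the mean over all 6 arrays, 189 of them the same, the median was 0.053 with 122 higher and 78 lower, and chosen by the sid2.2 mean it was 0.083 with 133 higher and 67 lower. With each array centred on its median signal the split was 80 higher and 120 lower (median -0.060). Within cultures 1, 2 and 3 the median was -0.10, -0.054 and 0.23. The sign of the list's median thus turned with the scaling and with the culture. The median was above 0 under each of the 3 choices of genes, but choosing by the sid2.2 mean leans it upwards by construction.

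No member was over 2-fold apart between the genotype means, against 3.37% of all tested probe sets, the widest being the 1.92-fold of COR15A. Without Col-0 replicate 3 there were 3, COR15A, AT5G08050 and AT5G22580, all lower in sid2.2, without sid2.2 replicate 3 there was 1, COR15A, and without culture 3 there were 8. These were GAMMA-VPE and AT1G80130, higher in sid2.2, and COR15A, AT5G22580, AT5G08050, AT1G13930, AT1G11860 and AT3G50685, lower. Over the 6 arrays the ratio of a member's highest to its lowest array had a median of 1.53, was over 2 for 36 members and over 4 for 2, COR15A and AT5G22580, and was under 1.5 for 98. The lowest array of a member was Col-0 replicate 2 for 64 members, sid2.2 replicate 2 for 61 and Col-0 replicate 3 for 39. The highest was sid2.2 replicate 3 for 58, Col-0 replicate 1 for 47 and Col-0 replicate 2 for 38.

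**Figure D3:**
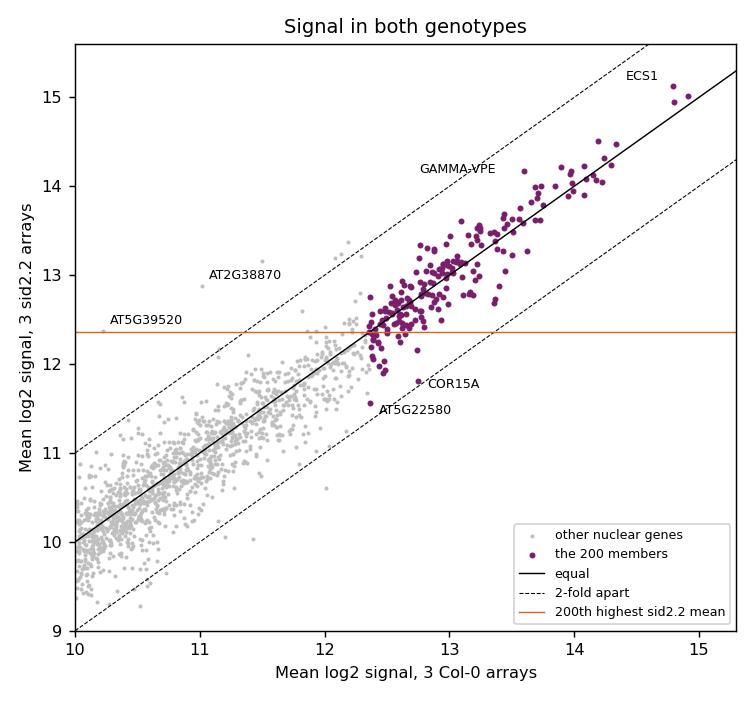
Mean log2 signal of the 3 sid2.2 arrays against that of the 3 Col-0 arrays for the 200 members (purple) and the other nuclear genes above a Col-0 mean of 10 (grey); the solid line is equality, the dashed lines are 2-fold apart and the orange line is the 200th highest sid2.2 mean. All members lie between the dashed lines, and 22 lie below the orange line.

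All sid2.2 arrays lay above all Col-0 arrays for 8 members (4% of them), against 6.4% of all tested probe sets, and below them for 5 members (2.5%), against 5.58%. Neither share of the members was above its background. The 8 were AT5G20290, AT1G67430, AT3G09200, AT1G67360, AT4G34670, AT2G23090, AT3G56290 and AT5G39570. Among them AT3G56290 had the largest increase of all members, with 6211, 7149 and 7530.2 on the Col-0 arrays against 9504, 9887 and 11947 on those of sid2.2 (difference 0.58, SE 0.18, log2; limma adjusted p = 0.521). Its within-culture differences were 0.61, 0.47 and 0.67, close to each other. The 5 below were AT1G51400, AT1G54410, AT2G45180, AT3G16370 and LIL3:2. AT3G16370 had 10638, 12050.1 and 8956 on the Col-0 arrays against 7050.5, 6158 and 6534 on those of sid2.2, a difference of -0.67 (SE 0.18, log2) with -0.59, -0.97 and -0.45 within the cultures. AT2G45180 had 10341, 11987 and 9537 on the Col-0 arrays against 9276, 8046 and 4242 on those of sid2.2, a difference of -0.63 with -0.16, -0.58 and -1.17 within the cultures, its lowest array being sid2.2 replicate 3.

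Besides these, the members with the largest increases in mean were GAMMA-VPE (0.57, log2), AT1G25275 (0.51), AT1G65820 (0.48), APA1 and ATG8F (both 0.44), AT1G67360 (0.42), AT1G80130 and AT4G34670 (both 0.40) and AT3G51730 (0.38). AT1G25275 had 8700.5, 5852 and 13154 on the Col-0 arrays against 10250.5, 15250 and 12338 on those of sid2.2, so Col-0 replicate 3 lay inside the sid2.2 range. AT1G65820 had 7998, 4858 and 9738 on the Col-0 arrays against 8702, 11628 and 10174 on those of sid2.2, again with Col-0 replicate 2 the dimmest. AT1G80130 had 3544, 3912 and 10508 on the Col-0 arrays against 7751, 8427 and 5093 on those of sid2.2: its brightest array was a Col-0 array. The largest decreases after COR15A were those of AT5G22580 (-0.80), AT3G16370, AT2G45180, AT1G11860 (-0.59), AT5G08050 (-0.56), AT2G42220 (-0.55), AT1G13930 (-0.52), AT4G16980 (-0.46) and AT3G50685 (-0.44). AT1G13930, at rank 43, had 15203, 13139.5 and 6283 on the Col-0 arrays against 7113, 5664 and 10520.1 on those of sid2.2. Col-0 replicate 3 was lower than sid2.2 replicate 3 in it, as in AT5G22580, AT1G11860, AT5G08050, AT2G42220, AT4G16980 and AT3G50685.

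**Figure D4:**
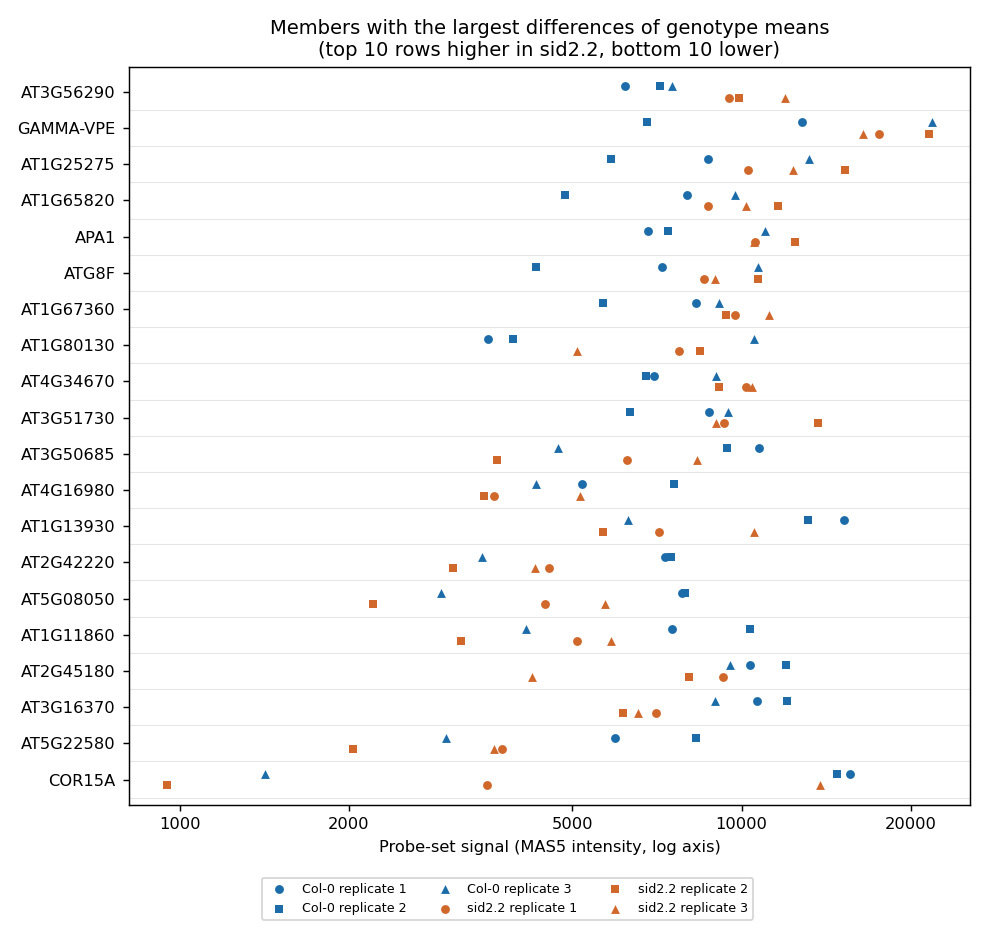
Signal (MAS5 intensity, log axis) of the 10 members with the largest increase in sid2.2 (upper rows) and the 10 with the largest decrease (lower rows), 1 point per array in the colours and shapes of the plot of the 25 brightest members. Only AT3G56290, AT1G67360, AT4G34670, AT2G45180 and AT3G16370 had genotypes that did not overlap; in most of the other rows Col-0 replicate 3 lies on the sid2.2 side.

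The steadiest members over the 6 arrays were AT5G19510, AT1G08360, AT3G10860, AT4G16720 and GSTL3, with SDs of 0.064, 0.078, 0.086, 0.099 and 0.10 (log2). AT5G19510 had 10823, 10356 and 10894 on the Col-0 arrays against 11868, 10893 and 11049.9 on those of sid2.2, a 1.15-fold range over all arrays, and kept rank 44 against 46. AT1G08360 had 7105, 6798 and 7439.7 on the Col-0 arrays against 7919, 7646 and 7377 on those of sid2.2. AT4G16720 had 8384, 8204 and 8904 on the Col-0 arrays against 9468, 8285 and 9564 on those of sid2.2. None of the 12 photosystem genes was among these 5, but 5 of 200 members are too few to compare groups by their steadiness.

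Ranks were largely kept. By the sid2.2 mean, 178 of the 200 genes (89%) were again among the 200 brightest, 22 left and 22 entered. Over the members the rank order of the sid2.2 means correlated with that of the Col-0 means at a Spearman coefficient of 0.89 (200 genes of the same arrays, a description), and the median change of rank was 15.5 places. The first 100 all stayed in the list. Within the first 10 ranks the median change was 2 places, and 7 of the 10 stayed in the first 10. Within the first 25 it was 3 places, and 23 stayed in the first 25. AT1G75280 climbed from rank 8 to 4 with 19319, 14099.5 and 23871 on the Col-0 arrays against 20804, 24369 and 24914 on those of sid2.2, while CURT1A went from rank 7 to 16. Of ranks 101 to 150, 47 of 50 stayed in the list, and of ranks 151 to 200, 31 of 50. A gene near rank 200 leaves with a smaller change than one far above it. These counts therefore do not compare steadiness between ranks.

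Turnover was also seen between arrays of one genotype, here between single arrays and not between means of 3, so the counts are not on a par with the 178. When each array was ranked alone, pairs of Col-0 arrays shared 150, 158 and 174 of their 200 brightest genes and pairs of sid2.2 arrays 163, 166 and 179. The 9 pairs of a Col-0 with a sid2.2 array shared 143 to 175 (median 165), so arrays of different genotypes shared about as many genes as arrays of one. Col-0 replicate 3 and sid2.2 replicate 2 shared most among the 9, 175, and Col-0 replicate 2 and sid2.2 replicate 2, of the same culture, fewest, 143. Over the 200 members the signals of the first pair had a Spearman coefficient of 0.945 and those of the second 0.43. In all, 283 genes entered the top 200 of at least 1 array, and 125, all of them members, were in that of all 6. On all 3 sid2.2 arrays 144 members were in the top 200, and 7 members were in it on none.

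**Figure D5:**
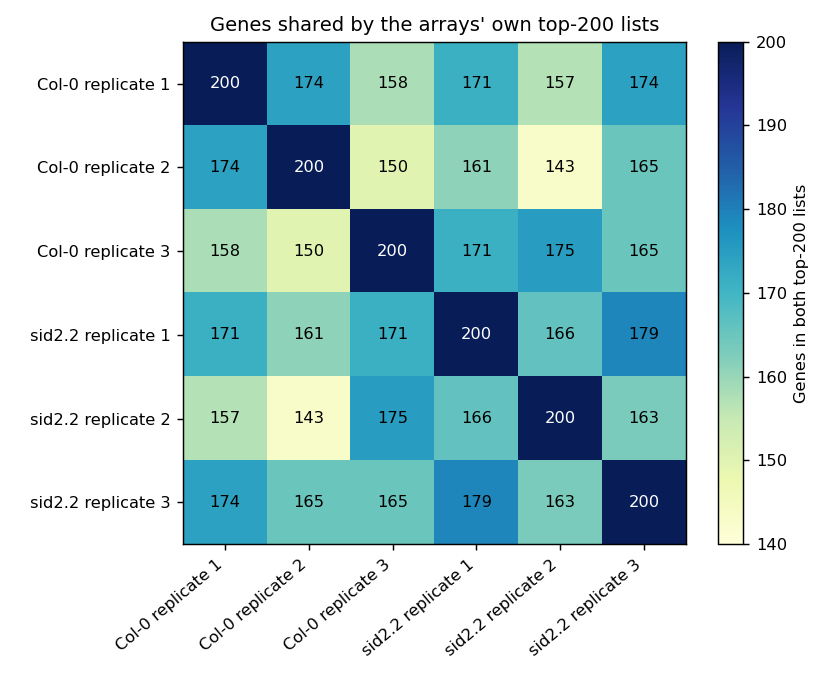
Number of genes shared by the lists of the 200 brightest nuclear genes of each pair of arrays, each array ranked alone; darker cells share more. The cell of Col-0 replicate 3 with sid2.2 replicate 2 (175) is above both cells of Col-0 replicate 3 with the other Col-0 arrays (158 and 150).

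Since the Col-0 arrays chose the list, they have an advantage in sharing it. Lists were therefore also made from 2 Col-0 arrays and compared with the array left out. The left-out Col-0 arrays shared 175, 163 and 156 genes with such lists, and the sid2.2 arrays 151 to 178. Col-0 replicate 3 shared fewer genes with the list of the other Col-0 arrays (156) than sid2.2 replicates 1 and 3 did (167 and 171). Without Col-0 replicate 3 the lists of the genotypes shared 83.5% of their genes, and without Col-0 replicate 2 92%.

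At the edge of the list the signals ran close together. Just inside rank 200 were AT2G41410, AT5G22580, AT1G80130, AT3G12260 and AT4G21105, and just outside AT3G13120, AT2G14910, AT1G78020, AT5G62350 and AT5G43150. AT4G21105, at rank 200, had 6108, 4748 and 4985 on the Col-0 arrays against 4779, 5562 and 5527 on those of sid2.2. AT3G13120, at rank 201, had 5516, 6876 and 3773 on the Col-0 arrays against 4235, 2923 and 4910.3 on those of sid2.2. Of the 5 just inside, 4 remained in the list in sid2.2, at ranks 176, 127, 188 and 199, whereas AT5G22580 went to rank 443. The 5 just outside were at ranks 295, 279, 387, 306 and 218 in sid2.2.

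The members that left by the widest margin were AT5G22580 (rank 197 to 443), COR15A (126 to 341), AT5G08050 (179 to 308), AT2G42220 (175 to 299) and AT4G16980 (184 to 282). AT5G22580 had 5947, 8307 and 2977 on the Col-0 arrays against 3746, 2036 and 3621 on those of sid2.2, and AT5G08050 had 7818, 7929 and 2924 on the Col-0 arrays against 4459, 2210.3 and 5723 on those of sid2.2. AT2G42220 had 7304, 7487 and 3453 on the Col-0 arrays against 4537, 3065 and 4293 on those of sid2.2. In these 3, Col-0 replicates 1 and 2 were the brightest arrays, and Col-0 replicate 3 was dimmer than sid2.2 replicates 1 and 3. AT2G42220 lies next to OEP16-3 (AT2G42210) in the gene order, whose difference was 0.041 (log2) and whose rank moved from 136 to 133. The other pair of members that are neighbours, AT2G27710 and AT2G27720, differed by -0.11 and 0.032 (log2).

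Genes that entered by the widest margin were AT5G39520 (rank 1348 to 197), AT2G38870 (731 to 109), AT1G12030 (471 to 72), AT4G34180 (347 to 155) and RD2 (332 to 196), known as a gene responsive to desiccation. AT5G39520 had 1071, 492 and 3242 on the Col-0 arrays against 3774, 7683 and 5145 on those of sid2.2, all sid2.2 arrays being above all Col-0 arrays (difference 2.15, log2). AT2G38870 had 2538, 1331 and 2626 on the Col-0 arrays against 6049, 9019 and 7794 on those of sid2.2, also without overlap (difference 1.86, log2, or 3.63-fold). Its within-culture differences were 1.25, 2.76 and 1.57. AT1G12030 had 4545, 391 and 13647 on the Col-0 arrays against 6859, 12472 and 8956 on those of sid2.2: its dimmest and its brightest array were both Col-0 arrays. These entrants were picked for their rank change, so their differences are descriptions. AT5G39520 and AT2G38870 did not pass the limma test (adjusted p = 0.473 and 0.171).

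The lists of genes drawn up for leaf functions give the wider pathways. Over 23 lists, 249 entries yielded 37 with a usable probe set, of which 19 were members and 0 were called. The photosystem I and II lists had 2 measured genes each, all members. The antenna list had 3 measured and 2 members, the Calvin cycle list 4 and 3, and the photorespiration list 5 and 3. All 5 measured photorespiration genes had a lower mean in sid2.2, and none passed. In culture 3 all 5 were higher in sid2.2 than in Col-0. The other 2 measured genes of that list, AT2G35120 and AT1G80380, were no members, at ranks 1034 and 855 in Col-0 with differences of -0.13 and -0.11 (log2), and neither passed (limma adjusted p = 0.901 and 0.933). Lists for aquaporins, translation factors, ubiquitin, lipid transfer proteins and chaperones had no usable probe set and were not analysed here.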

How the data were processed

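Total RNA of 6 rosette pools was hybridised to 3'-biased oligonucleotide arrays with 22810 probe sets, 64 of them controls, from 200 ng of RNA per target, per the labels' protocols. The values the authors deposited are signal intensities on a linear scale. The submitters' processing notes name MAS5, whose version, like the image analysis, is not given in the sources used here. With the highest and lowest 2% left out, each array's mean was between 500.05 and 500.06, and the medians of all signals were 131, 152 and 151 (Col-0) and 162, 150.2 and 146 (sid2.2). Such scaling hides changes in the total RNA of a cell. Arrays have no counting depth, and 3 per genotype limit the precision.

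Probe sets were named through the platform annotation, and RefSeq's table of the TAIR10.1 assembly gave symbols, synonyms and gene order, but no coordinates. The ranking used 13367 nuclear single-gene probe sets. Signals were put on a log2 scale as deposited, and the dimmest 40% of probe sets by overall mean were dropped. Then limma 3.58.1 in R 4.3.3 (two-sided, lmFit followed by eBayes with trend) was fitted on all 13647 others, with Benjamini-Hochberg adjustment over them. The fit was tested on simulated data with independent noise. Such data lack the pattern that arrays share here, so the test checked only the calculation. Alternatives were quantile normalization, median centring, no filter, no trend, culture as a block, leaving out arrays or cultures, and other rules for ranking. The labels make the replicate number a shared culture, so it pairs the arrays, but the main fit left culture out. Deviations of same-numbered arrays from the genotype means correlated over all tested probe sets at -0.03, -0.53 and -0.55 in cultures 1, 2 and 3. Over the members the values were 0.085, -0.70 and -0.68. Arrays of one culture thus tended to deviate in opposite directions in cultures 2 and 3. Other calculations used Python 3.11.15, pandas 2.3.3 and SciPy 1.17.1.

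The members, gene lists and tests were chosen with earlier results of these data known, and the role groups after the names and differences had been seen. Besides the members with a role, the text names the 25 highest, the 10 largest increases and decreases, the 5 steadiest, the 5 on either side of rank 200, the 5 widest leavers and entrants, up to 5 of each list, and those whose genotypes did not overlap. No sequences are given.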

Additional observations from a re-analysis of the deposited data

How the results depend on the processing

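Of the 200 members 0 were called under each alternative that was run (quantile normalization, median centring, no filter, no trend, the replicate block, each array or culture left out) except without culture 3, which called 7. The shared part of the top 200 was 83.5% to 92% with single arrays left out and 86% to 89.5% under the other scalings, averages and list lengths. With sid2.2 replicate 2 and Col-0 replicate 3 both left out it was 86%, an alternative chosen after seeing the data. The median difference of the members (0.020) ran from -0.039 to 0.092 with single arrays left out and was -0.095 without culture 3. The middle one of the 3 within-culture medians was -0.054, that of culture 2. The count over 2-fold apart (0) ran from 0 to 3 with single arrays left out. It was 1 with median centring, 8 without culture 3 and 1 without that pair of arrays, COR15A being the gene in both cases of 1. It was 4 with genes ranked by the 6-array mean and 6 with genes ranked by the sid2.2 mean, all of them higher in sid2.2. Ranking by the sid2.2 mean leans the differences upwards by construction, so the direction of those 6 is a description only. The difference in the share of signal (0.41 percentage points) ran from -0.60 to 1.14 with single arrays left out and was -1.35 without culture 3. Of the 92 members whose differences were followed, the sign turned for 26 without culture 2, 15 without culture 3, 12 without culture 1, 12 with median centring and 2 with quantile normalization, and for 8 to 17 with a single array left out. The causes were not tested. In this balanced design the replicate block leaves each difference as it is and alters only its error. The number of arrays, 3 per genotype, limits the precision.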
